A study of Mus musculus with 9 samples.

Results

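Collecting duct principal cells recover water and sodium from the urine, and 10 genes that carry out or control this were followed here in whole mouse kidney. They are the water channels Aqp2, Aqp3 and Aqp4, the vasopressin receptor Avpr2, the subunits Scnn1a, Scnn1b and Scnn1g of the epithelial sodium channel (ENaC), and the aldosterone pathway genes Hsd11b2, Sgk1 and Fxyd4. They were chosen by name, as a fixed list of principal cell genes, out of 55359 genes in the count table. The choice was made with earlier results of these data known. All 10 had enough counts to be tested, among 17179 genes that did.

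The kidneys came from 3 groups of 3 libraries each, all from mice put on their diet at 6 weeks of age. The HFD-STZ DHZ mice ate a diet with 49.0% of its calories from fat, received 2 injections of streptozotocin (STZ, a toxin of insulin-producing cells) at 30 mg/kg on days 60 and 63, and were dosed by mouth with dehydrozingerone (DHZ, a compound of ginger) at 50 mg/kg for 2 weeks. The HFD-STZ vehicle mice had the same diet and toxin and no dehydrozingerone. The NCD vehicle mice ate a normal calorie diet with 11.32% of its calories from fat, and the labels state no toxin for them. Diet and toxin were given together, so their effects cannot be told apart. The batch dates in the labels are all different and run in group order, which leaves date and group confounded: they cannot be told apart either. The labels do not say whether the 9 samples came from 9 animals, so each p-value refers to the variation among these samples, part of which may be technical. Every group held libraries with and without Y-linked transcripts (below), so no group came from a single animal.

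Vasopressin from the pituitary binds the V2 receptor on the blood side of principal cells, raises cAMP, and brings Aqp2 to the urinary membrane, from where water leaves through Aqp3 and Aqp4 on the blood side. Aldosterone acts through the mineralocorticoid receptor, encoded by Nr3c2, and raises sodium uptake through ENaC. The enzyme made from Hsd11b2 keeps glucocorticoids off that receptor, the kinase Sgk1 keeps ENaC at the membrane by restraining the ubiquitin ligase Nedd4-2, and Fxyd4 is a small modulator of the sodium pump. In RNA of a whole organ, fewer principal cells and less RNA per principal cell cannot be told apart.

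Promoter sequences of 7 of the 10 genes were found in the RefSeq table of build GRCm38.p6. The 4 below run 5′ to 3′, each from 250 bases before a transcription start to 50 bases after it. Fxyd4 and Aqp3 are shown as the members that passed a test, and Aqp2 as the channel that defines the cell. Sgk1 is shown as a steroid-induced member, by the 1 of its windows that held the palindrome described below. Capitals mark 3 motifs on either strand. The core of the cAMP response element was searched as TGACG, and the site of GATA-binding factors such as Gata3 as AGATAA. The full palindromic site of glucocorticoid and mineralocorticoid receptors was searched as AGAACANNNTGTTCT.
Fxyd4, chr6:117937286-117937585, - strand: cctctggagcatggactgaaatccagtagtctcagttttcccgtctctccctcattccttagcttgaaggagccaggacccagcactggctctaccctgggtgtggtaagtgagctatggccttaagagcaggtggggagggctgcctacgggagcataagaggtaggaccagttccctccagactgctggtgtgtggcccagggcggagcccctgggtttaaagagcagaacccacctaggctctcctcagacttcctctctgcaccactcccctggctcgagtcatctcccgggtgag
Aqp3, chr4:41098134-41098433, - strand: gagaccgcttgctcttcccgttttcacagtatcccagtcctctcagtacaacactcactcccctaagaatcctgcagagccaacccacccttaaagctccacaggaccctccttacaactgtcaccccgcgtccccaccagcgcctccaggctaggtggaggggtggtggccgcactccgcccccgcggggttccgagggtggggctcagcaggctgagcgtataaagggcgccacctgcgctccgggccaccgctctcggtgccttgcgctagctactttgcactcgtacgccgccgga
Aqp2, chr15:99578806-99579105, + strand: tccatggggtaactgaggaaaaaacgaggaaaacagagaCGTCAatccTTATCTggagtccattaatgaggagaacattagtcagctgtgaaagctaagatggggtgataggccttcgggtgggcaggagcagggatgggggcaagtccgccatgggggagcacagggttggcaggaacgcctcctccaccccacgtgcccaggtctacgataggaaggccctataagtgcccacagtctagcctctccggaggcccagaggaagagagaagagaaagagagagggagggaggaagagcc
Sgk1, chr10:21993640-21993939, + strand: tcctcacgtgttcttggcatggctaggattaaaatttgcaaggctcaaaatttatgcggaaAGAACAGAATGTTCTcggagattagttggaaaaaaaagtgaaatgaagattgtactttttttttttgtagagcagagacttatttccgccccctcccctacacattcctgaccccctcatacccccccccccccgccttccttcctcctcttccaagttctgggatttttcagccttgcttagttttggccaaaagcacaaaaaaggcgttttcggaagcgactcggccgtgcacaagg

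The Aqp2 window held the cAMP core beginning 211 bases before the start and the GATA site beginning 202 bases before it, both on the reverse strand. Sgk1 had 6 start windows in the table, and the palindrome was in the one printed, beginning 189 bases before that start. Among its windows not printed, 1 held the cAMP core and 2 the GATA site. Of 32851 promoter windows in the table, 20.8% held the cAMP core, 11.2% the GATA site and 0.00913% (3 windows) the palindrome. The windows of Fxyd4 and Aqp3 held none of these letters.

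The libraries held 15.1 to 47.5 M counts, and nuclear protein-coding genes made up 7.63 to 15.2 M of these in HFD-STZ DHZ, 2.13 to 6.52 M in HFD-STZ vehicle and 4.59 to 8.49 M in NCD vehicle. HFD-STZ vehicle replicate 2 stood apart, with the fewest nuclear coding counts, 60.4% mitochondrial counts where the others had 39.2% to 52.4%, and 839 counts over the 10 genes where the others had 2372 to 10225. Fold changes of the 10 genes that turn on it are given with and without it. Fold changes of genes outside the 10 come from the fit to all 9 libraries only. Y-linked transcripts, summed and called present above 1 CPM of the total counts, were found at 36.5 to 106 CPM in 4 libraries, namely HFD-STZ DHZ replicate 3, HFD-STZ vehicle replicates 2 and 3 and NCD vehicle replicate 1, and at 0 to 0.209 CPM in the other 5, which are called those without. The labels do not give the sex of the mice. Values are counts per M of scaled library size (CPM) as mean ± SD with n = 3, with libraries scaled by edgeR's TMM factors. Fold changes, their standard errors (SE) and adjusted p come from edgeR's quasi-likelihood test fitted to all 9 libraries, with Benjamini-Hochberg adjustment over the 17179 genes and a call at an adjusted p below 0.05.

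Markers of the other nephron cells were present in every group, and all 10 principal cell genes were detected in every library. Per kilobase of exon, which allows genes to be compared, Hsd11b2 was the most abundant of the 10 in each group, at 9.86 ± 1.89 CPM per kb in HFD-STZ DHZ, 14.3 ± 2.57 in HFD-STZ vehicle and 12.3 ± 0.959 in NCD vehicle. In NCD vehicle kidneys it was followed by Aqp3 at 11.8 ± 2.06, Aqp2 at 11.7 ± 5.05 and Fxyd4 at 9.86 ± 2.41 CPM per kb, and the ranges of neighbours among these 4 overlapped. A gap then separated them from Aqp4 at 5.09 ± 2.96, Scnn1a at 4.75 ± 0.458, Scnn1b at 3.50 ± 0.417, Sgk1 at 3.01 ± 1.85, Scnn1g at 1.64 ± 0.341 and Avpr2 at 1.60 ± 0.617 CPM per kb. Among these 6, Scnn1a and Scnn1b were the only neighbours in the order whose ranges did not overlap, while the range of Aqp4 enclosed that of Scnn1b and Sgk1 overlapped both Aqp4 and Scnn1a. In HFD-STZ DHZ kidneys Fxyd4 came after Aqp4 in this order, at 4.15 ± 0.773 CPM per kb, with Aqp3 at 7.18 ± 0.540, Aqp2 at 6.98 ± 1.50 and Aqp4 at 6.11 ± 4.42, and the ranges of Fxyd4 and Aqp4 overlapped.

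**Figure D1:**
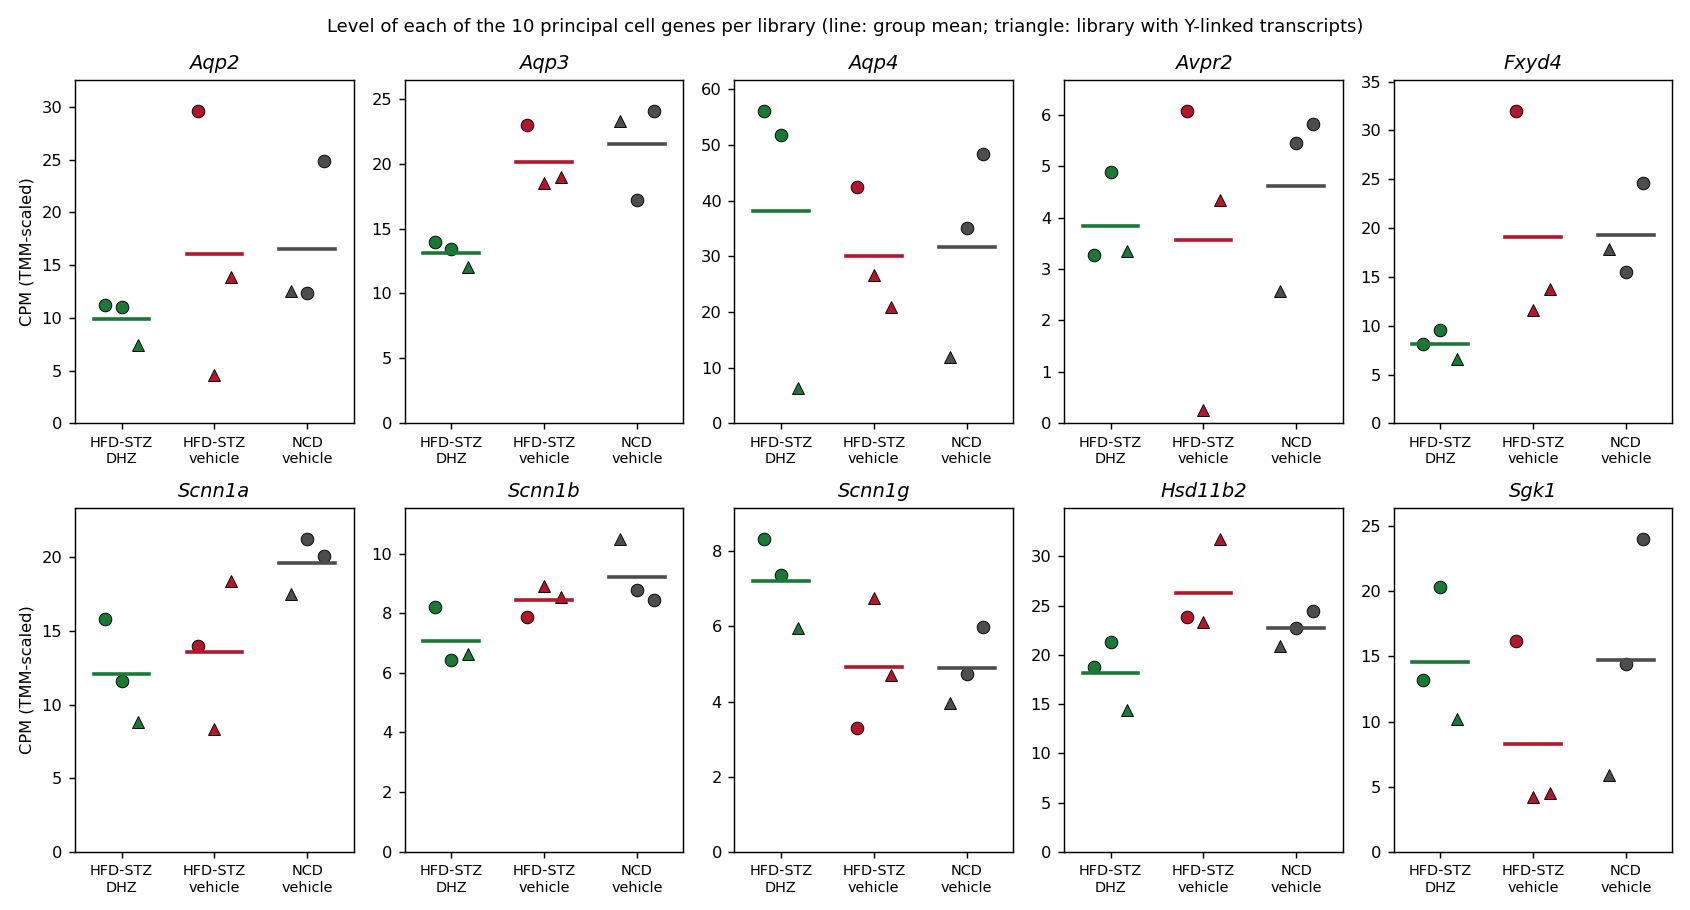
Level of each of the 10 principal cell genes in every library, in TMM-scaled CPM on axes that start at 0, with HFD-STZ DHZ left, HFD-STZ vehicle in the middle and NCD vehicle right. Lines are group means and triangles are libraries with Y-linked transcripts. The 3 HFD-STZ DHZ libraries lie below all 6 others for Fxyd4 and Aqp3.

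Treatment was judged from HFD-STZ DHZ set against HFD-STZ vehicle kidneys. Fxyd4 and Aqp3 fell, by 1.24 and 0.62 on the log2 scale, 0 members rose, and the other 8 did not pass the test. That is 2 of 10 called, where 22.1% of all genes tested were called in this comparison (12% lower), so the share is near the background. The median log2 fold change was −0.22 over the 10 genes and 0.04 over all genes, with 4 estimates above 0 and 6 below.

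Fxyd4 encodes the corticosteroid hormone-induced factor, which raises the sodium affinity of the pump in collecting duct. It stood at 8.17, 9.59 and 6.57 CPM in HFD-STZ DHZ replicates 1 to 3, against 32.0, 11.6 and 13.7 CPM in HFD-STZ vehicle and 17.8, 15.5 and 24.6 CPM in NCD vehicle. All 3 treated libraries lay below every library of the other groups, and the highest value was that of HFD-STZ vehicle replicate 1. The means were 8.11 ± 1.51 CPM in HFD-STZ DHZ and 19.1 ± 11.2 CPM in HFD-STZ vehicle, a log2 fold change of −1.24 (SE 0.35, 95% interval −2.00 to −0.48, adjusted p = 0.0263). The estimate was −0.66 without HFD-STZ vehicle replicate 1 and its adjusted p exceeded 0.05 then and without any 1 of the HFD-STZ DHZ libraries, reaching at most 0.0934, and it was 0.386 with scaling by library size only. Without HFD-STZ vehicle replicate 2 the log2 fold change was −1.48 (adjusted p = 0.0166).

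Aqp3 forms the water and glycerol channel of the blood side membrane. Its values were 14.0, 13.4 and 12.0 CPM in HFD-STZ DHZ, against 23.0, 18.5 and 18.9 CPM in HFD-STZ vehicle and 23.3, 17.2 and 24.1 CPM in NCD vehicle. Again the treated libraries lay below all 6 others. With means of 13.1 ± 0.988 CPM in HFD-STZ DHZ and 20.1 ± 2.48 CPM in HFD-STZ vehicle, the log2 fold change was −0.62 (SE 0.20, 95% interval −1.06 to −0.18, adjusted p = 0.0455). With no filter on low counts the adjusted p was 0.199. It was 0.0556 with only the 2 groups compared and 0.0857 with a replicate block. The call lay close to the threshold. It held without HFD-STZ vehicle replicate 2 (adjusted p = 0.0419) or NCD vehicle replicate 1 and was lost when any 1 of the other 7 libraries was left out, with adjusted p up to 0.122 and log2 fold changes of −0.67 to −0.53. Scaled by library size only, where the median of all genes moved to 0.81, Aqp3 had 0.09 and Fxyd4 −0.74, so both stayed below that median while the estimate of Aqp3 itself turned above 0.

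**Figure D2:**
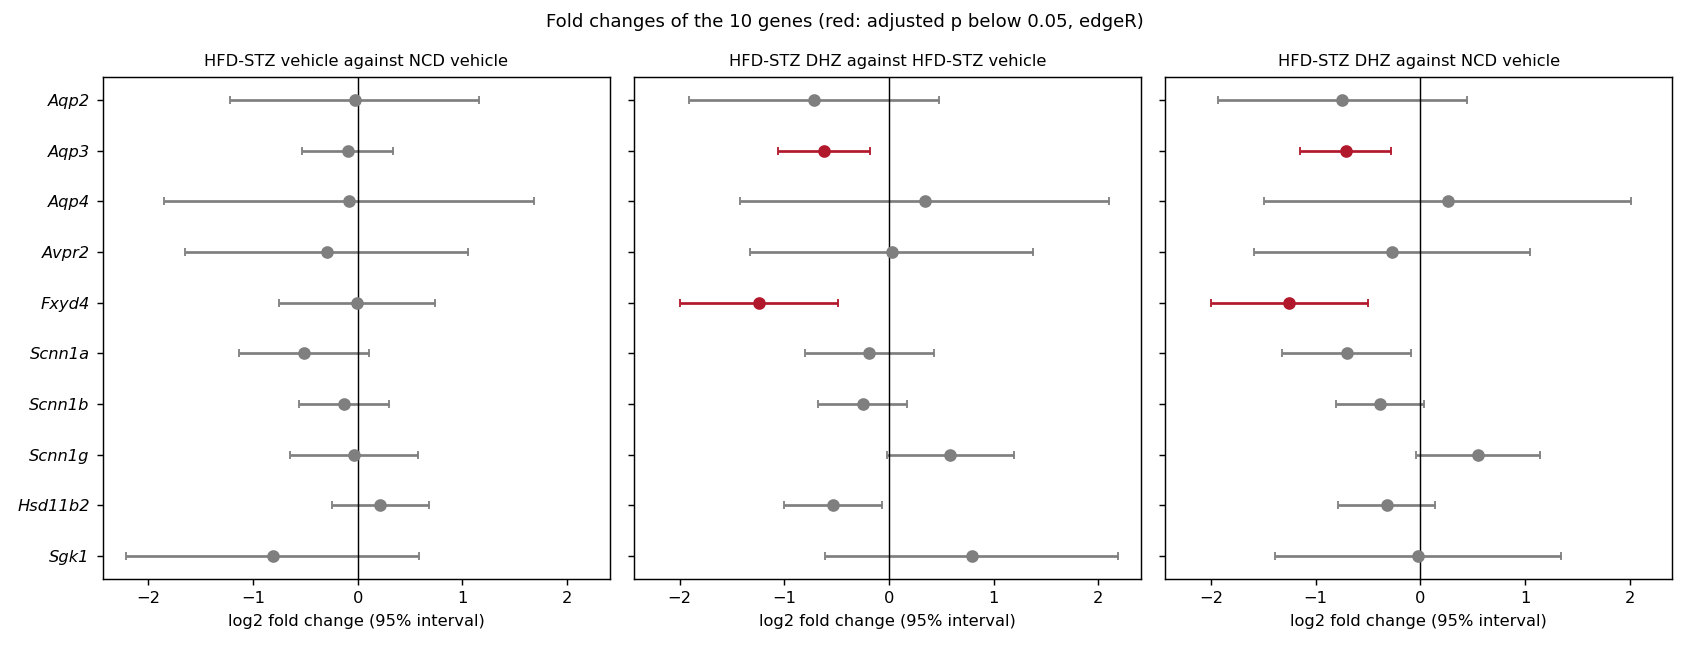
Log2 fold changes of the 10 genes in the 3 comparisons, with 95% intervals. Red points passed the test at an adjusted p below 0.05. Fxyd4 and Aqp3 are the red points in both comparisons of HFD-STZ DHZ, and no gene is red in HFD-STZ vehicle against NCD vehicle.

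Of the remaining water genes, Aqp2 stood at 11.2, 11.0 and 7.44 CPM in HFD-STZ DHZ, against 29.6, 4.59 and 13.9 CPM in HFD-STZ vehicle. The 3 vehicle libraries held both the highest and the lowest value and enclosed all treated ones, and the log2 fold change of −0.72 (95% interval −1.91 to 0.48) had an adjusted p of 0.358. Without HFD-STZ vehicle replicate 2 it was −1.12 (adjusted p = 0.0648), and without replicate 1 it was 0.04. Aqp4, the other channel of the blood side membrane, had the largest SD of the 10 genes among treated libraries, with 56.1, 51.8 and 6.40 CPM in HFD-STZ DHZ, against 42.5, 26.7 and 20.9 CPM in HFD-STZ vehicle (log2 fold change 0.34, 95% interval −1.42 to 2.11, adjusted p = 0.779). The groups overlapped, and treated replicate 3, the lowest of all 9 libraries, carried Y-linked transcripts. Avpr2 was the least abundant member, with 3.26, 4.89 and 3.34 CPM in HFD-STZ DHZ, against 6.07, 0.270 and 4.33 CPM in HFD-STZ vehicle (log2 fold change 0.02, 95% interval −1.32 to 1.37, adjusted p = 0.982). The vehicle libraries enclosed all treated ones, and the 0.270 CPM rests on 2 counts and its exact Poisson interval of 0.0327 to 0.974 CPM covers counting error only. Without that library the log2 fold change was −0.42 (adjusted p = 0.396). In the annotation at hand 2347 of the 2886 exon bases of Avpr2 also lie in Arhgap4 on the opposite strand, and since the sources used here do not state the strand setting of the counting, reads of the pair may be mixed although the libraries were made strand-specific.

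None of the 3 ENaC subunits passed the test, and their estimates lay on both sides of 0. Scnn1g, the gamma subunit, had 8.32, 7.36 and 5.96 CPM in HFD-STZ DHZ, against 3.31, 6.74 and 4.69 CPM in HFD-STZ vehicle (log2 fold change 0.59, 95% interval −0.02 to 1.19, adjusted p = 0.147). The groups overlapped at HFD-STZ vehicle replicate 2, without which the log2 fold change was 0.85 (adjusted p = 0.044, and 0.044 to 0.409 over 18 alternatives). Scnn1a, the alpha subunit that the channel needs to conduct, had 15.8, 11.6 and 8.81 CPM in HFD-STZ DHZ, against 14.0, 8.36 and 18.4 CPM in HFD-STZ vehicle (log2 fold change −0.19, 95% interval −0.81 to 0.43, adjusted p = 0.665). Here too the groups overlapped, with the highest value in HFD-STZ vehicle replicate 3 and the lowest in its replicate 2. Scnn1b, the beta subunit, lay within 6.42 to 8.20 CPM in HFD-STZ DHZ and within 7.86 to 8.90 CPM in HFD-STZ vehicle, with overlap and a log2 fold change of −0.25 (95% interval −0.68 to 0.18, adjusted p = 0.375).

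The makeup of the channel's messages was compared within each library, which needs no scaling between libraries. Per kilobase of exon, Scnn1a made up 39.4%, 36.4% and 32.1% of the 3 subunits in HFD-STZ DHZ, 45.3%, 26.4% and 48.0% in HFD-STZ vehicle and 44.5%, 51.1% and 48.3% in NCD vehicle. The treated libraries lay below all NCD vehicle libraries, by 12.0 percentage points on average, and HFD-STZ vehicle replicate 2 was the lowest of the 9. By a two-sided exact permutation test the difference between HFD-STZ DHZ and NCD vehicle had p = 0.1, the smallest that 3 against 3 libraries can give, and the other differences were −3.94 points for HFD-STZ DHZ minus HFD-STZ vehicle (exact p = 0.6) and −8.06 points for HFD-STZ vehicle minus NCD vehicle (exact p = 0.4). Without HFD-STZ vehicle replicate 2 these 2 differences were −10.7 and −1.31 points. Over the 9 ratio tests run here, none had an adjusted p below 0.225. The log2 ratio of Aqp2 to Aqp3 per kilobase averaged −0.06 ± 0.23 in HFD-STZ DHZ, −0.33 ± 1.21 in HFD-STZ vehicle and −0.08 ± 0.47 in NCD vehicle, and the values overlapped in every pair (exact permutation p = 0.8 to 1).

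Among the aldosterone genes, Hsd11b2 had 18.8, 21.3 and 14.4 CPM in HFD-STZ DHZ, against 23.8, 23.3 and 31.7 CPM in HFD-STZ vehicle. The groups did not overlap, as for Fxyd4 and Aqp3, making 3 of 10 without overlap, all lower, where 39.8% of all genes tested did not overlap (19% lower), and the log2 fold change of −0.54 (SE 0.21, 95% interval −1.0 to −0.07) had an adjusted p of 0.089. DESeq2 (adjusted p = 0.0459) and a fit on nuclear protein-coding genes only (adjusted p = 0.0499) called it, and over 18 alternatives the adjusted p ran to 0.793, reached with library size scaling. The receptor gene Nr3c2 itself rose, with 7.34 ± 2.63 CPM in HFD-STZ DHZ and 3.20 ± 1.43 CPM in HFD-STZ vehicle (log2 fold change 1.14, SE 0.34, adjusted p = 0.0308). Its values in HFD-STZ vehicle replicates 1 to 3 were 4.61, 1.75 and 3.25 CPM, so replicate 2, with 13 counts, lowered that mean. The lowest HFD-STZ DHZ value was 4.77 CPM. The log2 ratio of Hsd11b2 to Nr3c2 per kilobase was 2.72, 3.37 and 3.41 in HFD-STZ DHZ, 4.18, 5.55 and 5.10 in HFD-STZ vehicle and 3.86, 4.12 and 3.95 in NCD vehicle. The highest ratio, 5.55 in HFD-STZ vehicle replicate 2, rests on those 13 counts of Nr3c2. None of the 3 groups overlapped another in this ratio, whose differences were −1.78 for HFD-STZ DHZ minus HFD-STZ vehicle, −0.81 for HFD-STZ DHZ minus NCD vehicle and 0.97 for HFD-STZ vehicle minus NCD vehicle (exact permutation p = 0.1 each, the smallest possible, adjusted p = 0.225). Sgk1 had 13.2, 20.3 and 10.2 CPM in HFD-STZ DHZ, against 16.2, 4.18 and 4.53 CPM in HFD-STZ vehicle (log2 fold change 0.79, 95% interval −0.61 to 2.19, adjusted p = 0.383). The vehicle library at 16.2 CPM was replicate 1, the one without Y-linked transcripts, and without it the log2 fold change was 1.72 (adjusted p = 0.048, and 0.0109 to 0.675 over 18 alternatives).

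Other genes of these pathways moved in both directions between HFD-STZ DHZ and HFD-STZ vehicle. Their lists were written from textbook knowledge, with earlier results of these data known. Over all genes tested 22.1% were called in this comparison (12% lower), and the counts of each list are to be read beside that share. Of 33 tested genes of vasopressin signalling and water transport 5 rose and 6 fell (median log2 fold change 0.17). Prkar1a, a regulatory subunit of the cAMP-dependent kinase, rose to 54.3 ± 9.49 CPM in HFD-STZ DHZ, against 26.5 ± 3.22 CPM in HFD-STZ vehicle (adjusted p = 0.00828). Gnas, which encodes the G protein that couples the V2 receptor to cAMP, fell to 279 ± 27.0 CPM in HFD-STZ DHZ, against 764 ± 306 CPM in HFD-STZ vehicle (log2 fold change −1.45, adjusted p = 0.0102). Its values in HFD-STZ vehicle replicates 1 to 3 were 570, 1117 and 606 CPM, so replicate 2 raised that mean. Akap7, an anchor for the kinase, had a log2 fold change of −1.17 (adjusted p = 0.0108), and Stub1, a ubiquitin ligase, −0.83 (adjusted p = 0.0118). HFD-STZ vehicle replicate 2 was the highest vehicle library for Akap7 too (25.8 CPM). Of genes named below, the same held for Wnk1 (450 CPM), Hoxb7 (24.4 CPM) and Slc6a6 (415 CPM). It did not hold for Stub1, Usp2, Gata3 and L1cam. In all of these genes and Gnas the treated libraries lay below every vehicle library.

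Of 33 tested aldosterone and ENaC regulators 4 rose and 5 fell (median log2 fold change −0.23). Usp2, a deubiquitinase with an isoform that aldosterone induces, fell to 29.5 ± 3.93 CPM in HFD-STZ DHZ, against 106 ± 29.8 CPM in HFD-STZ vehicle (log2 fold change −1.85, SE 0.26, adjusted p = 0.00309). Wnk1, a kinase that controls salt transport, fell by 1.16 on the log2 scale (adjusted p = 0.0176). Cul3, the scaffold of the ligase that degrades WNK kinases, rose by 1.25 (adjusted p = 0.00577) and Sgk3, a relative of Sgk1, by 1.09 (adjusted p = 0.00934).

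Among 21 other tested genes of principal cells and collecting duct, 1 rose and 3 fell (median log2 fold change −0.18). Gata3, a transcription factor of the duct, stood at 11.9 ± 2.21 CPM in HFD-STZ DHZ and at 30.3 ± 2.98 CPM in HFD-STZ vehicle (log2 fold change −1.35, SE 0.20, adjusted p = 0.00309). Hoxb7, a homeobox gene of the ureteric bud and its ducts, had 7.70 ± 0.941 CPM in HFD-STZ DHZ and 19.4 ± 4.45 CPM in HFD-STZ vehicle (log2 fold change −1.33, adjusted p = 0.00737), and the adhesion molecule L1cam had 10.9 ± 0.515 CPM in HFD-STZ DHZ and 24.2 ± 4.27 CPM in HFD-STZ vehicle (log2 fold change −1.16, adjusted p = 0.00453). Cldn8, a tight junction protein of the duct, rose, with 20.5 ± 7.29 CPM in HFD-STZ DHZ and 8.98 ± 3.50 CPM in HFD-STZ vehicle (log2 fold change 1.18, adjusted p = 0.0366), with overlap between the groups. In the osmolyte and medullary tonicity list 1 of 9 fell and 0 rose (median −0.31). That was the taurine transporter Slc6a6, with a log2 fold change of −1.09 (adjusted p = 0.0158).

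**Figure D3:**
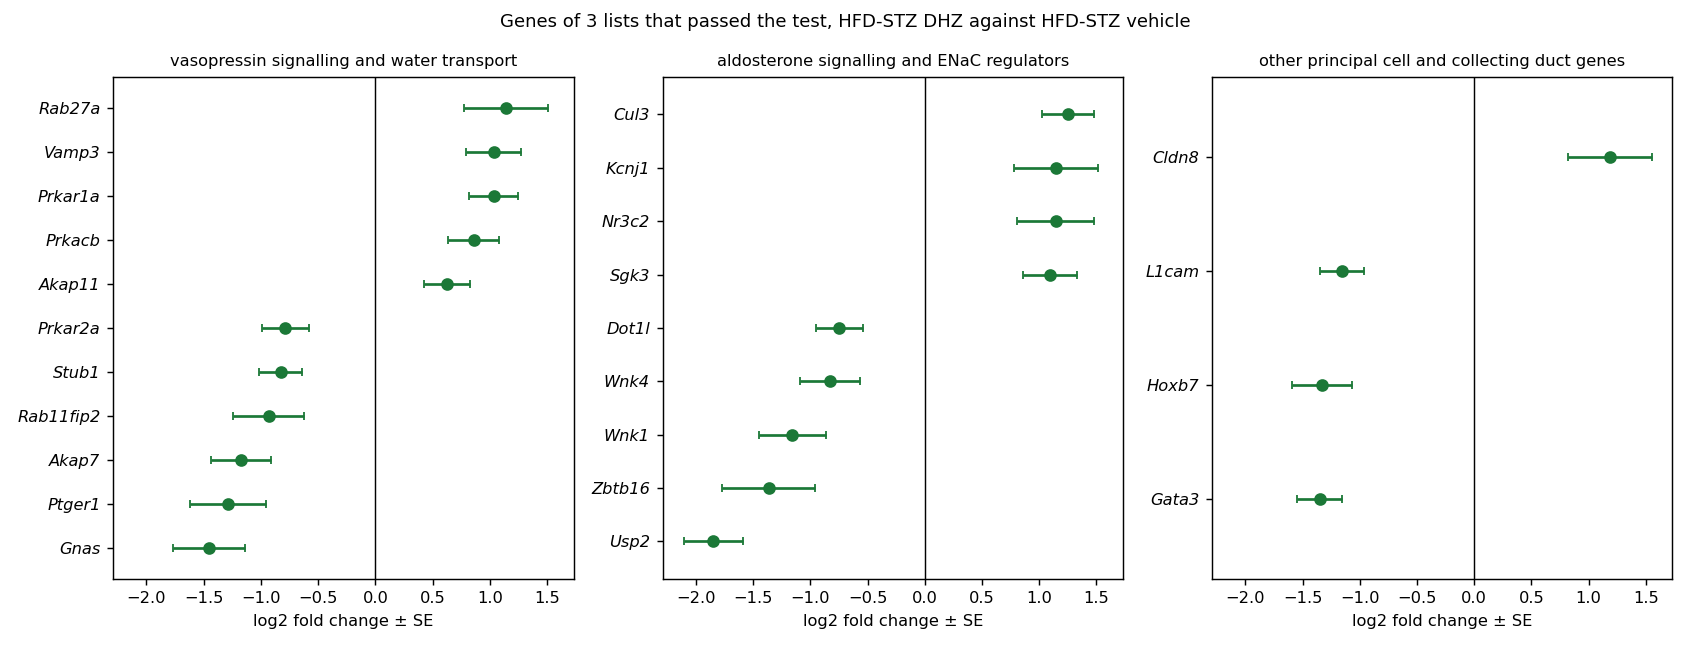
Log2 fold changes with SE of every gene of 3 pathway lists that passed the test in HFD-STZ DHZ against HFD-STZ vehicle. Each list holds genes on both sides of 0, from Usp2 at −1.85 to Cul3 at 1.25.

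Sums over the marker lists of other kidney cells were set beside these results. In every list 0 markers were at 0 in all 9 libraries. Calls between HFD-STZ DHZ and HFD-STZ vehicle are again to be read beside the 22.1% of all genes called (12% lower). The 10 intercalated cell markers summed to 146 to 167 CPM in HFD-STZ DHZ, 188 to 233 CPM in HFD-STZ vehicle and 232 to 260 CPM in NCD vehicle, and 0 of 10 passed the test between HFD-STZ DHZ and HFD-STZ vehicle although the sums did not overlap. The 7 markers of distal convoluted and connecting tubule summed to 518 to 911 CPM in HFD-STZ DHZ, 954 to 1069 CPM in HFD-STZ vehicle and 1067 to 1276 CPM in NCD vehicle, with 1 higher and 2 lower by the test. The 5 thick ascending limb markers summed to 1103 to 2460 CPM in HFD-STZ DHZ, 829 to 1815 CPM in HFD-STZ vehicle and 718 to 1404 CPM in NCD vehicle, with 1 called, higher. The 5 podocyte markers summed to 67.6 to 87.6 CPM in HFD-STZ DHZ, 20.9 to 43.4 CPM in HFD-STZ vehicle and 51.4 to 69.9 CPM in NCD vehicle, with 2 called, both higher. The 9 proximal tubule markers (1146 to 1242 CPM in HFD-STZ DHZ, 842 to 1363 CPM in HFD-STZ vehicle and 1129 to 1421 CPM in NCD vehicle) had 2 called, both higher, and 0 of 5 endothelial and 0 of 3 tested urothelial markers were called. The urothelial sum was at most 7.27 CPM in any library. The part of these cells in the results for the 10 genes was not tested.

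The effect of diet and toxin was judged from HFD-STZ vehicle set against NCD vehicle kidneys, and here 0 of the 10 genes passed the test, as against 0.0524% of all genes. At an unadjusted p under 0.05 there were also 0, where 7.43% of all genes were, and DESeq2 and limma-voom called 0 as well. In 0 of the 10 genes were the groups free of overlap, where 11.4% of all genes were. The estimates stood close to 0 for most, with a median of −0.09, 1 above 0 and 9 below, and their 95% intervals show what the data allow. They were narrowest for Scnn1b (−0.56 to 0.30), Aqp3 (−0.53 to 0.34) and Hsd11b2 (−0.25 to 0.68) and widest for Aqp4 (−1.85 to 1.68) and Sgk1 (−2.22 to 0.59).

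With all libraries the largest estimate was that of Sgk1, with 16.2, 4.18 and 4.53 CPM in HFD-STZ vehicle, against 5.88, 14.4 and 24.0 CPM in NCD vehicle (log2 fold change −0.81, SE 0.62, adjusted p = 0.78). It was −0.27 without NCD vehicle replicate 3, where Scnn1a had the larger estimate at −0.50, −0.53 without HFD-STZ vehicle replicate 2 and −1.74 without HFD-STZ vehicle replicate 1. Next came Scnn1a, with 14.0, 8.36 and 18.4 CPM in HFD-STZ vehicle, against 17.5, 21.2 and 20.1 CPM in NCD vehicle (log2 fold change −0.51, SE 0.29, adjusted p = 0.718, and −0.27 without HFD-STZ vehicle replicate 2). The groups overlapped, since HFD-STZ vehicle replicate 3 stood above NCD vehicle replicate 1. Aqp2 averaged 16.0 ± 12.6 CPM in HFD-STZ vehicle and 16.6 ± 7.17 CPM in NCD vehicle (log2 fold change −0.03, adjusted p = 0.992), and Fxyd4 19.1 ± 11.2 CPM in HFD-STZ vehicle and 19.3 ± 4.73 CPM in NCD vehicle (log2 fold change −0.01, adjusted p = 0.995). Hsd11b2, with 23.8, 23.3 and 31.7 CPM in HFD-STZ vehicle and 20.9, 22.7 and 24.4 CPM in NCD vehicle, was the 1 estimate above 0 (log2 fold change 0.21, adjusted p = 0.82). Aqp4 had 42.5, 26.7 and 20.9 CPM in HFD-STZ vehicle and 11.9, 35.1 and 48.3 CPM in NCD vehicle, so that the NCD vehicle values enclosed those of HFD-STZ vehicle. Avpr2 averaged 3.56 ± 2.98 CPM in HFD-STZ vehicle and 4.61 ± 1.78 CPM in NCD vehicle (log2 fold change −0.30, adjusted p = 0.921), and its estimate was 0.16 without HFD-STZ vehicle replicate 2.

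Among the pathway lists, 0 of 33 vasopressin genes, 0 of 33 aldosterone and ENaC regulators, 0 of 21 other duct genes and 0 of 9 osmolyte genes passed the test. Over all genes 0.0524% passed it. Of the marker lists, 1 of 7 distal convoluted and connecting tubule markers was called, lower, namely S100g, and 0 markers of the other 6 cell types were called.

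Treated kidneys were also set against NCD vehicle kidneys. Between HFD-STZ DHZ and NCD vehicle the members called were again Fxyd4 and Aqp3, both lower, so 2 of 10 were called, where 13.7% of all genes were (7.38% lower). This comparison shares the HFD-STZ DHZ libraries with the one above, so it is no independent repeat. Fxyd4 averaged 8.11 ± 1.51 CPM in HFD-STZ DHZ and 19.3 ± 4.73 CPM in NCD vehicle (log2 fold change −1.25, SE 0.35, adjusted p = 0.0352), and Aqp3 13.1 ± 0.988 CPM in HFD-STZ DHZ and 21.5 ± 3.76 CPM in NCD vehicle (log2 fold change −0.71, SE 0.20, adjusted p = 0.0365). Each call was lost without any 1 of the 6 libraries compared, with adjusted p of at most 0.118 for Fxyd4 and 0.122 for Aqp3, and each held without any 1 of the HFD-STZ vehicle libraries. With scaling by library size only, the adjusted p were 0.643 for Fxyd4 and 0.922 for Aqp3.

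Besides these, 3 members lay below all NCD vehicle libraries without passing the test, so that 5 of 10 did not overlap, where 44.1% of all genes did not (21.7% lower). Aqp2 had 7.44 to 11.2 CPM in HFD-STZ DHZ and 12.3 to 24.8 CPM in NCD vehicle (log2 fold change −0.75, adjusted p = 0.368). Scnn1a had 8.81 to 15.8 CPM in HFD-STZ DHZ and 17.5 to 21.2 CPM in NCD vehicle (log2 fold change −0.70, adjusted p = 0.113). Scnn1b had 6.42 to 8.20 CPM in HFD-STZ DHZ and 8.43 to 10.5 CPM in NCD vehicle (log2 fold change −0.38, adjusted p = 0.197). Scnn1a passed with only these 2 groups in the fit (adjusted p = 0.0416) and without HFD-STZ vehicle replicate 2 (adjusted p = 0.0499), where 18 alternatives gave 0.0416 to 0.909. Scnn1g was the member with the highest estimate, at 0.55 (95% interval −0.04 to 1.14, adjusted p = 0.182), with 5.96 to 8.32 CPM in HFD-STZ DHZ and 3.96 to 5.98 CPM in NCD vehicle. Hsd11b2 (−0.32), Avpr2 (−0.27), Sgk1 (−0.02) and Aqp4 (0.26) overlapped between the groups and had adjusted p of 0.322 to 0.985.

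The counts of the pathway and marker lists in this comparison are to be read beside the 13.7% of all genes called (7.38% lower). In the pathway lists 4 vasopressin genes were higher and 3 lower, of 33 tested. The kinase anchor Akap11 (0.91, adjusted p = 0.0175) and the kinase subunit Prkacb (0.96, adjusted p = 0.0197) were higher, while the cAMP-degrading enzyme Pde4d (−0.96, adjusted p = 0.0184) and Stub1 (−0.78, adjusted p = 0.022) were lower. Of 33 aldosterone and ENaC regulators 3 were higher and 5 lower. Usp2 stood at −1.43 (adjusted p = 0.0101) and Cul3 at 1.07 (adjusted p = 0.015), and the WNK kinase gene Wnk4 at −1.05 (adjusted p = 0.0243) beside Klhl3, the adaptor that brings WNK kinases to Cul3, at −0.92 (adjusted p = 0.0244). Among 21 other duct genes 1 was higher and 3 lower, and Slc6a6 was the 1 called osmolyte gene, at −0.93 (adjusted p = 0.0391). Tfcp2l1, a transcription factor of the duct, was higher, with 92.1 ± 7.69 CPM in HFD-STZ DHZ and 49.2 ± 2.85 CPM in NCD vehicle (0.90, adjusted p = 0.0198), while Gata3 (−0.92, adjusted p = 0.0164), L1cam (−0.82, adjusted p = 0.021) and the calcium-binding protein Calb1 (−1.07, adjusted p = 0.0364) were lower. Calb1 is also among the distal convoluted and connecting tubule markers and is counted in that list too. Here 2 of 10 intercalated cell markers were lower as well, Slc4a9 at −1.48 (adjusted p = 0.0172) and Insrr at −1.53 (adjusted p = 0.0271). Of the other marker lists, distal convoluted and connecting tubule had 1 higher and 3 lower of 7, thick ascending limb 1 higher of 5, podocytes 1 higher and 1 lower of 5, and 0 of 9 proximal tubule, 0 of 5 endothelial and 0 of 3 tested urothelial markers were called.

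How alike the 10 genes ran over the 9 libraries was described with no test. The root mean square (RMS) difference between mean-centred log2 CPM was smallest for Aqp3 and Scnn1b (0.25), Scnn1b and Hsd11b2 (0.28) and Aqp3 and Hsd11b2 (0.28), and largest for Aqp4 and Avpr2 (1.41). Over all genes tested, those close to Aqp2 by this measure included Klk1b3 (0.27), Zfp341 (0.35), Oas1b and Cntfr (0.36 each), where the median gene differed from Aqp2 by 0.88. For Sgk1 they were Ifitm1 (0.23), Slc6a17 (0.30), Tek (0.32), Reln (0.34) and Tdrkh (0.35), where the median was 0.95. Over the 10 genes HFD-STZ vehicle replicate 2 and HFD-STZ DHZ replicate 3 were each the lowest library for 4, and HFD-STZ vehicle replicate 1 was the highest for 3.

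Aqp4 and Sgk1, whose group comparisons had wide intervals, differed between libraries with and without Y-linked transcripts. Aqp4 stood at 6.40 to 26.7 CPM (median 16.4) in the 4 libraries with Y-linked transcripts and at 35.1 to 56.1 CPM (median 48.3) in the 5 without. Sgk1 stood at 4.18 to 10.2 CPM (median 5.21) in the libraries with Y-linked transcripts and at 13.2 to 24.0 CPM (median 16.2) in those without. Neither gene overlapped between the sets, where 3.18% of all genes were lower without overlap in libraries with Y-linked transcripts. In a fit with both group and this term, the term was called for Aqp4 (log2 fold change −1.89, SE 0.34, adjusted p = 0.00741) and Sgk1 (−1.40, SE 0.25, adjusted p = 0.00778), that is for 2 of 10 members, where 3.43% of all genes were called. Aqp2 (−0.93, adjusted p = 0.145), Fxyd4 (−0.65, adjusted p = 0.155) and Avpr2 (−0.83, adjusted p = 0.33) were not called. This split was examined after the members' values had been seen. It also ran with the makeup of the libraries. Mitochondrial counts were 46.0% to 60.4% in libraries with Y-linked transcripts and 39.2% to 46.3% in those without. The 10 genes together made up 0.0367% to 0.0534% of nuclear coding counts with Y-linked transcripts and 0.0672% to 0.0970% without. That sum includes Aqp4 and Sgk1 themselves, so it is no measure of makeup separate from them. Whether the differences in Aqp4 and Sgk1 go with the Y-linked transcripts or with the mitochondrial share was not tested.

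**Figure D4:**
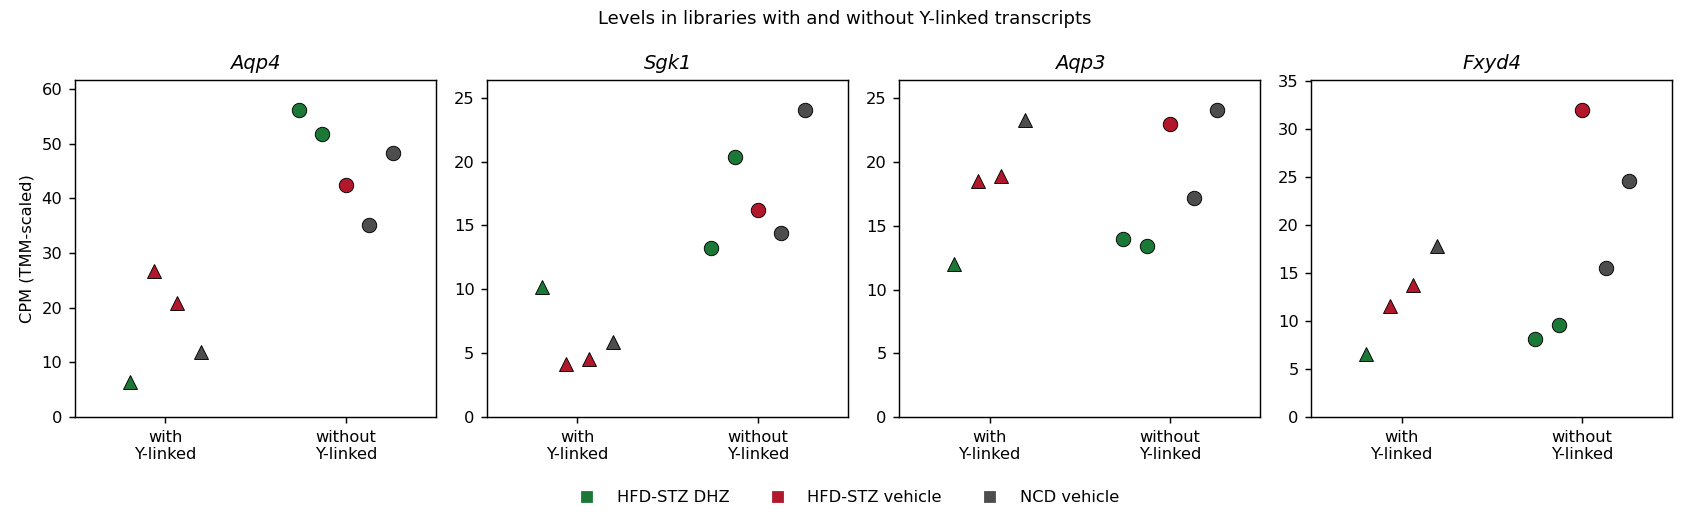
CPM of Aqp4, Sgk1, Aqp3 and Fxyd4 in the 4 libraries with Y-linked transcripts (triangles, left) and the 5 without (circles, right), coloured by group, on axes that start at 0. Aqp4 and Sgk1 do not overlap between the sets. For Aqp3 and Fxyd4 the HFD-STZ DHZ libraries are the lowest within each set.

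With this term in the fit, Fxyd4 had a log2 fold change of −1.37 (adjusted p = 0.00573) and Aqp3 of −0.65 (adjusted p = 0.0396) in HFD-STZ DHZ against HFD-STZ vehicle. Within the libraries with Y-linked transcripts, Fxyd4 stood at 6.57 CPM in HFD-STZ DHZ replicate 3, at 11.6 and 13.7 CPM in HFD-STZ vehicle replicates 2 and 3 and at 17.8 CPM in NCD vehicle replicate 1. Within those without, it stood at 8.17 and 9.59 CPM in HFD-STZ DHZ, at 32.0 CPM in HFD-STZ vehicle and at 15.5 and 24.6 CPM in NCD vehicle. Aqp3 likewise was lowest in HFD-STZ DHZ in each set, at 12.0 CPM with and at 14.0 and 13.4 CPM without Y-linked transcripts. With the term 0 members were called in HFD-STZ vehicle against NCD vehicle kidneys, and the estimates of Sgk1 (−0.44) and Aqp4 (0.76) had adjusted p of 0.851 and 0.752.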

How the data were processed

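Polyadenylated RNA of 9 kidney samples was sequenced as strand-specific libraries, per the labels' protocols. Reads were trimmed with Trim Galore and aligned with STAR to GRCm39, per the submitters' processing notes, and the authors deposited unnormalised read counts per gene. The sources used here do not state how reads on several genes or on each strand were assigned. Sample titles gave the groups, because the treatment label lists the compound for all samples.

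Counts were tested with edgeR 4.0.16 in R 4.3.3 (robust quasi-likelihood, TMM, filterByExpr, 6 residual degrees of freedom), which left 17179 genes. The script was tested on simulated data. Intervals are 95% intervals. Ratios within libraries were tested with two-sided exact permutation tests, adjusted over 9 tests. Exon lengths for values per kilobase came from a GRCm38 annotation, matched by gene identifier.

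The 10 genes, the pathway lists and the marker lists were chosen with earlier results of these data known. From each list up to 4 called genes of lowest p were named per comparison. The gene list of the sodium pump and 1 gene close to Aqp2 are not reported here. Alternatives were other scalings, DESeq2 1.42.0, limma-voom (limma 3.58.1), no filter, only the 2 groups compared, nuclear protein-coding genes only, a replicate block, a term for Y-linked transcripts and leaving out each library.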

Additional observations from a re-analysis of the deposited data

How the results depend on the processing

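Between HFD-STZ vehicle and NCD vehicle 0 of the 10 genes were called under every alternative run. Between HFD-STZ DHZ and HFD-STZ vehicle, 2 were called, and the alternatives gave 0 with library size scaling, 1 with only the 2 groups compared and 0 to 3 when 1 library was left out. The genes called changed too. With no filter they were Sgk1, higher, and Fxyd4, lower, and without HFD-STZ vehicle replicate 1 Sgk1 alone, higher. Between HFD-STZ DHZ and NCD vehicle, 2 were called, and the alternatives gave 0 with library size scaling, 1 with no filter and 0 to 3 when 1 library was left out. With a replicate block 0 were called in both, but same-numbered libraries deviated with correlations of −0.41 to 0.22, so the numbers were not taken to pair the samples. The causes were not tested. Over all genes, HFD-STZ DHZ and HFD-STZ vehicle differed in 3796 (1726 higher, 2070 lower), against 888 with library size scaling (832 higher, 56 lower), 2159 with the block and 1149 to 4086 without 1 library. For HFD-STZ DHZ and NCD vehicle the 2352 calls became 36 with library size scaling, 772 with the block, 3981 with only these groups, 3617 with the Y-linked term and 112 to 3706 without 1 library. For HFD-STZ vehicle and NCD vehicle the 9 became 425 with no filter, 125 with DESeq2, 42 with the Y-linked term, 29 with library size scaling (where the median of all genes moved to −0.74), 3 with only these groups, 2 with the block or limma-voom and 2 to 28 without 1 library.

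Estimates that changed sign had wide intervals or lay near 0, apart from those under library size scaling and Aqp4 under the Y-linked term. For HFD-STZ vehicle against NCD vehicle the log2 fold change was 0.0017 for Fxyd4 with RLE (DESeq2-type) factors, −0.55 for Hsd11b2 with library size scaling and 0.10 for Aqp4 with limma-voom, and the Y-linked term gave 0.14 for Aqp2, 0.76 for Aqp4 and 0.096 for Fxyd4. Between HFD-STZ DHZ and HFD-STZ vehicle, library size scaling gave 0.087 for Aqp3, 0.49 for Scnn1a, 0.55 for Scnn1b and 0.24 for Hsd11b2. Aqp4 had −0.15 with limma-voom and −0.70 with the Y-linked term, and Avpr2 had −0.072 with nuclear protein-coding genes only and −0.18 with the term. For HFD-STZ DHZ against NCD vehicle, limma-voom gave −0.048 for Aqp4 and 0.11 for Sgk1, no filter 0.037 and the Y-linked term 0.14 for Sgk1, and the replicate block −0.023 for Aqp4.

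Leaving out 1 library gave, for HFD-STZ vehicle against NCD vehicle, −0.78 to 0.39 for Aqp2, −0.48 to 0.35 for Aqp4, −0.80 to 0.16 for Avpr2, −0.29 to 0.21 for Scnn1g and −0.59 to 0.24 for Fxyd4. Between HFD-STZ DHZ and HFD-STZ vehicle it gave −1.12 to 0.040 for Aqp2, −0.028 to 0.86 for Aqp4, −0.42 to 0.53 for Avpr2 and −0.42 to 0.10 for Scnn1a. For HFD-STZ DHZ against NCD vehicle it gave −0.12 to 0.77 for Aqp4 and −0.39 to 0.52 for Sgk1. The difference in the Scnn1a share for HFD-STZ DHZ minus HFD-STZ vehicle ran over −10.7 to 0.11 percentage points. The Aqp2 to Aqp3 ratio differed by −0.79 to 0.40 for HFD-STZ vehicle minus NCD vehicle, −0.39 to 0.80 for HFD-STZ DHZ minus HFD-STZ vehicle and −0.21 to 0.26 for HFD-STZ DHZ minus NCD vehicle.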
